A study of Homo sapiens with 8 samples.

Results

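Chemokines, interleukins, their receptors and the NF-kB pathway genes were described in SKBR3, an established line of human mammary carcinoma cells with ERBB2 (HER2) amplification, with and without knockdown of the pioneer transcription factor FOXA1. The genes were chosen by symbol: CCL and CXCL chemokines, interleukins, interleukin receptors, TNFSF and TNFAIP genes, and a named set of NF-kB genes with BIRC3 and TNF. A mean of at least 10 counts in the 4 control or in the 4 knockdown libraries was also required. Of 30434 genes in the table, 106 had such a symbol and 59 of these reached the minimum. They comprised 5 chemokines, 9 interleukins, 22 genes with an interleukin receptor symbol, 5 TNFSF ligands, 4 TNFAIP genes, 12 NF-kB subunit, inhibitor and kinase genes, BIRC3 and TNF. The 22 receptor symbols include IL1RN and IL36RN, which encode secreted receptor antagonists.

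The control group was labelled wild type. The knockdown group was labelled FOXA1 knockdown and came from a stable line carrying lentiviral short hairpin RNAs against FOXA1. Both groups grew in the same serum-containing medium, and no cytokine treatment is named. Whether the controls carried a control vector is not stated, nor is whether the 4 libraries of a group came from separate cultures, so p-values measure only the spread between these libraries. The transcript of FOXA1 gave 4180, 4239, 4071 and 4397 counts in the control libraries and 89, 87, 83 and 92 in the knockdown libraries, so the targeted gene went with the labels (2.06% of the control level). Values below are listed in the order of replicates 1 to 4.

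NF-kB is a family of dimeric transcription factors held in the cytoplasm by IkB proteins. Receptors for TNF, for the IL1 family and for microbial products activate the IKK kinase complex, which marks IkB for destruction and frees the dimer to enter the nucleus. Its target genes include chemokines, cytokines and its own inhibitors. Interleukin receptors of the other large class signal through JAK kinases and STAT factors instead. Tumour cells use both routes to make signals that attract or restrain immune cells.

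Library totals ran from 19087878 to 23786684 counts, and 3 counts corresponded to 0.123 to 0.153 CPM (counts scaled to 1000000 per library after TMM normalisation). The third control library was the most distant of its group (control replicate 3), with a chi-square per degree of freedom of 4.81 to 6.21 in its pairs against 2.16 to 2.38 in the others. The 8 epithelial and HER2 markers summed to 419219 to 450454 counts in control and 248930 to 288781 in knockdown, with 3 called higher and 5 lower. The keratins of simple epithelium KRT8 and KRT18 and the adhesion gene EPCAM rose, KRT18 from 2312 to 3457 CPM, KRT8 1.24-fold and EPCAM 1.26-fold. ERBB2 fell 5.45-fold, from 7308 ± 365 to 1340 ± 52.9 CPM (SD, n = 4 in each group; adjusted p 8.34e-26 by edgeR), KRT19 3.66-fold, KRT7 3.46-fold, GRB7 2.91-fold and STARD3 1.79-fold. The leukocyte marker PTPRC had 0 to 3 counts per library, the 2 T cell markers in the table together 1 to 5, and the 2 B cell markers 4 to 13. The 5 myeloid markers in the table summed to 1567 to 1663 counts in control and 1110 to 1553 in knockdown, nearly all from CSF1R. The 5 fibroblast markers summed to 115 to 147 counts in control and 212 to 291 in knockdown, and their members differed in opposite directions. COL3A1 had 0 or 1 count per control library and 90 to 104 in knockdown, PDGFRB 7 to 12 and 43 to 81, and COL1A1 103 to 134 and 79 to 107, while COL1A2 and DCN had 0 to 3 counts. The 4 endothelial markers summed to 446 to 483 and 407 to 508 counts, where VWF fell 6.18-fold, CDH5 rose 1.25-fold, and PECAM1 and KDR had 0 to 7 counts. The part of these cell types in the results was not tested.

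Sequences are shown first for the feature that many of the genes share, a match to the NF-kB consensus in the 250 bases before an annotated start. RefSeq promoters on GRCh38.p14 were found for 48 of the 59 genes, and 17 of the 48 (35.4%) carried a match on either strand before at least 1 of their starts. Over all 27305 genes with a promoter in that table the share was 6.28%. A gene with several starts had several windows in which to match (35116 windows over the 27305 genes). Neither these shares nor those of the other motifs below were adjusted for the number of windows. The whole window of NFKBIA, which encodes the main IkB protein, lies at chr14:35404750-35404999 on the minus strand, with the match in capitals on the strand of the gene:
NFKBIA: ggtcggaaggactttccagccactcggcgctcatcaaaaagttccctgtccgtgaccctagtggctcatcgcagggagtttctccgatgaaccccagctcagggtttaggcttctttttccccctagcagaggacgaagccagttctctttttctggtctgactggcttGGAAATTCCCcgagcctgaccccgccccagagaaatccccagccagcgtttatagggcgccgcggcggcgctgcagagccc

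For the other genes, 30 bases around the match nearest to a start are given, read on the strand that carries the consensus, so that the capitals can be compared. Shown are the genes that encode parts or regulators of the pathway, then, of the other genes with a match, the 5 with the largest fold between the groups. The windows precede RefSeq starts, and GENCODE can place the start of a gene further upstream. The matches shown for NFKB2, REL, NFKBIB, TNFAIP3, IL12A and IL17D lie past the GENCODE start of the gene. Positions are chr4:102501300-102501329 (plus) for NFKB1, chr10:102395674-102395703 (plus) for NFKB2, chr2:60881518-60881547 (minus) for REL, chr19:38899932-38899961 (minus) for NFKBIB, chr3:101827757-101827786 (plus) for NFKBIZ, chr6:137867194-137867223 (minus) for TNFAIP3 and chr11:102317339-102317368 (minus) for BIRC3. They are chr3:159988781-159988810 (minus) for IL12A, chr16:57358588-57358617 (plus) for CCL22, chr17:7558131-7558160 (plus) for TNFSF13, chr13:20702909-20702938 (minus) for IL17D and chr19:14031684-14031713 (plus) for IL27RA:
NFKB1: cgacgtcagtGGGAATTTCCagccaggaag
NFKB2: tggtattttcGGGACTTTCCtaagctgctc
REL: ctggcgggagGGGAATTTCCcgcggctgac
NFKBIB: tccgccctgcGGGAAATTCCccaccacgcc
NFKBIZ: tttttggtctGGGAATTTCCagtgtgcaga
TNFAIP3: ttgtaggcccGGGGATTTCCacgggacttt
BIRC3: ttaggacttaGGGGAACTCCagcggtaata
IL12A: acaggcgggcGGGACACCCCgcccaccacc
CCL22: agagttgaggGGGGGTCCCCtctgagtggt
TNFSF13: tcctcctgcgGGGAAATCCCttcctggctg
IL17D: caaacccagaGGGATTCTCCttagagctac
IL27RA: gccccagccgGGGACTTTCCgtcgcgggga

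Of the 17 genes, 13 had a mean of at least 10 counts in both groups, and 10 of these were called lower in knockdown, 1 was called higher (IL17D) and 2 did not pass the threshold (NFKBIB and NFKBIZ). Of all 14461 genes tested that had such a mean in both groups, 38.1% were called lower and 37.5% higher, by the test described below. The other 4 genes (CCL22, IL12A, IL23A and IL27RA) reached that mean in 1 group only, which fixed their direction, so they are left out of the count. The same windows were searched for 4 other motifs on both strands; overlap between motifs was allowed. The forkhead motif TGTTTAC was found in 1 of the 48 genes (IL16; 3.66% of all genes), and TGANTCA, the AP-1 motif, in 10 (20.8%, against 8.06% of all genes). The interferon-stimulated response element was found in 5 (10.4%, against 3.71%) and the STAT motif TTCNNNGAA in 4 (8.33%, against 8.09%). A match describes the letters of the window, and no binding was measured.

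The minimum of 10 counts was met in both groups by 44 genes, in control only by 7 and in knockdown only by 8. A gene that met it in 1 group only had to be lower in the other, so those 15 genes are given by their levels, without a test. Among the 44 genes, edgeR's quasi-likelihood test over all genes (Benjamini-Hochberg adjusted p under 0.05) called 27 lower and 10 higher in knockdown, and 7 did not pass. Of all 14461 tested genes with the same minimum in both groups, 38.1% were called lower and 37.5% higher (75.5% either way). Of all 16430 genes tested, 77.1% were called. The median log2 fold change was -0.32 over the 44 and -0.0026 over those 14461. The minimum was set on the same libraries and the genes were proposed with results of these data in view, so nothing is read from the counts. Their CPM did not overlap between the groups for 25 genes that were lower and 10 that were higher, where the shares over the 14461 genes were 35.2% and 34.9% (70.1% either way).

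**Figure D1:**
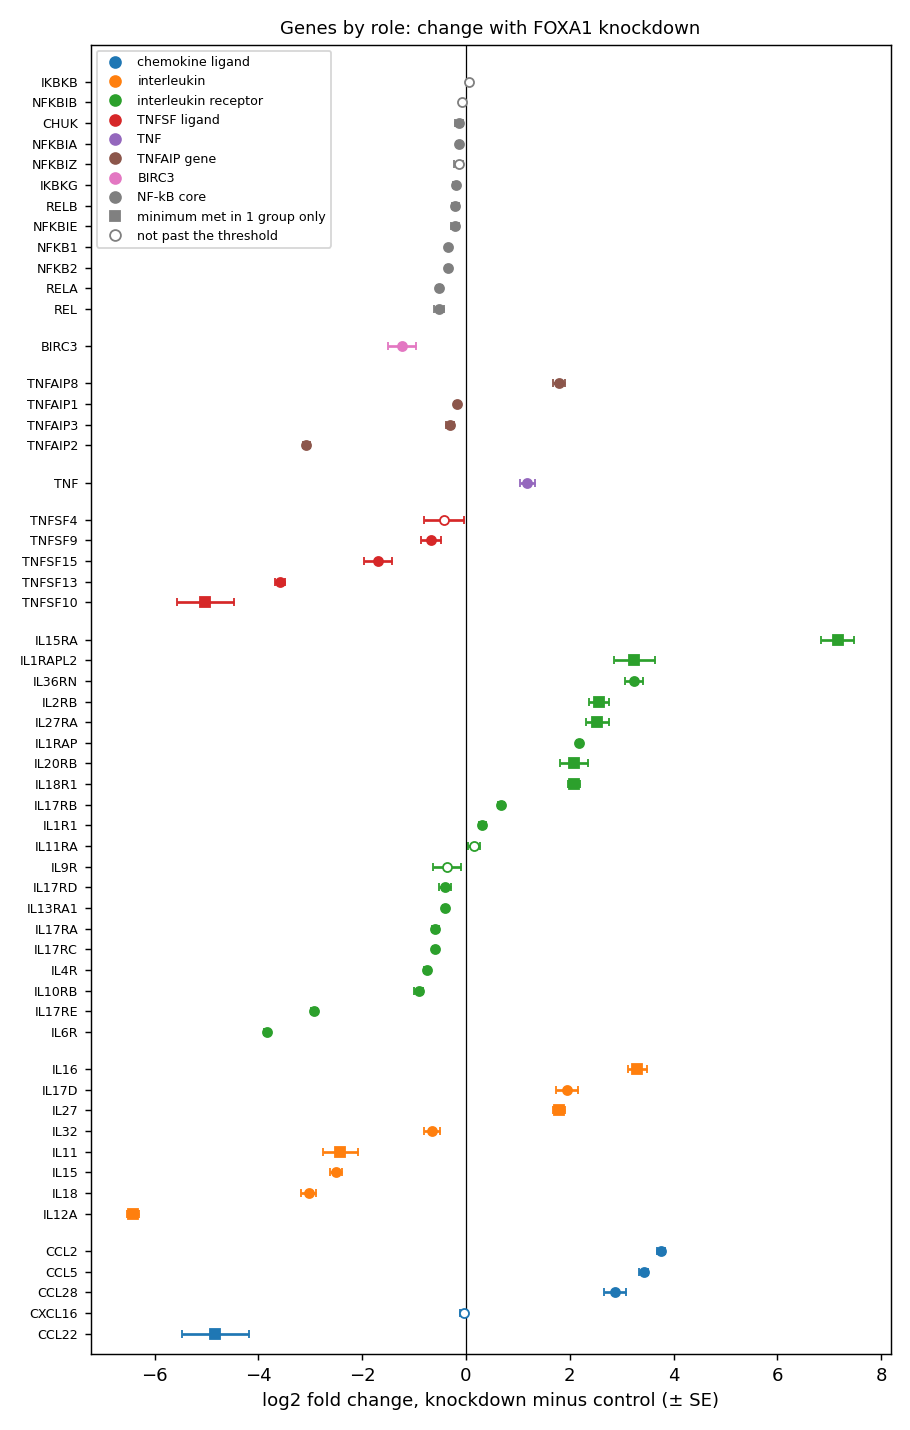
Log2 fold change (knockdown minus control, x axis; bars are SE over 4 libraries a group) of the 56 genes tested, grouped by role. Squares met the count minimum in 1 group only, and open symbols did not pass the threshold. The NF-kB genes at the top, all with the minimum in both groups, lie within 0.53 of 0. Chemokines, interleukins and receptors with the minimum in both groups spread from -3.84 for IL6R to 3.76 for CCL2. IL12A at -6.41 and IL15RA at 7.16 met it in 1 group only, which fixed their direction.

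Among the chemokines, the secreted proteins that guide migrating leukocytes, 3 of the 4 that met the minimum in both groups were called higher in knockdown (37.5% of the 14461 genes were) and 1 did not pass the test. CCL2 (chromosome 17, 34255218 to 34257203), which attracts monocytes, was at 0.641, 0.681, 0.760 and 0.776 CPM in control and at 9.99, 8.97, 9.98 and 10.1 CPM in knockdown. The groups lay far apart, and the mean rose 13.7-fold, from 0.714 ± 0.0640 to 9.76 ± 0.526 CPM (SD, n = 4 in each group). Its log2 fold change was 3.76 (SE 0.0747, adjusted p 8.52e-19 by edgeR). CCL5 (chromosome 17, 35871491 to 35880793), which attracts T cells and monocytes, was at 1.83, 1.77, 2.23 and 2.11 CPM in control and 21.0, 20.7, 21.3 and 22.5 CPM in knockdown. Every knockdown library was above every control library, and the mean rose 10.8-fold (log2 fold change 3.42, SE 0.0835, adjusted p 2.48e-21 by edgeR). CCL28, a chemokine of mucosal and glandular epithelium, had 10, 8, 14 and 12 counts in control and 71, 86, 87 and 84 in knockdown. It rose 7.42-fold (log2 fold change 2.87, SE 0.209, adjusted p 2.73e-12 by edgeR).

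CXCL16, a chemokine made as a membrane protein and the ligand of CXCR6, was at 7.19, 7.40, 6.79 and 7.15 CPM in control and 6.93, 6.92, 6.21 and 7.59 CPM in knockdown. These values overlapped, and the log2 fold change of -0.04 (SE 0.0640) did not pass the threshold (adjusted p 0.667 by edgeR). CCL22, a ligand of CCR4, met the minimum in control only, with 33, 44, 57 and 48 counts there and 4, 1, 1 and 0 in knockdown. The summed counts were 30.7-fold higher in control (95% exact counting interval 13.8 to 84.7). Per kilobase of merged exon, CCL5 went from 1.31 to 14.1 CPM and CCL2 from 0.360 to 4.91 CPM. This scale divides by all annotated exon bases of a gene, so comparisons between genes on it are rough and depend on the annotation. On it, CCL5 in knockdown lay beside NFKB1, at 14.0 CPM per kilobase.

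Among the interleukins the largest difference was in IL12A (chromosome 3, 159988750 to 159996019), the p35 subunit shared by the IL12 and IL35 cytokines. It had 491, 502, 406 and 497 counts in control and 5, 6, 6 and 5 in knockdown. The mean was 86.4-fold lower in knockdown, at 0.249 ± 0.0402 against 21.5 ± 1.59 CPM (SD, n = 4 in each group). It met the minimum in control only, so this is a description. IL12A shares 78 exon bases with the antisense gene IL12A-AS1, which averaged 8 counts.

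IL18 and IL15 fell. IL18 (chromosome 11, 112143251 to 112164117), an IL1 family cytokine that epithelial cells store as a precursor, was at 27.1, 29.2, 26.0 and 27.8 CPM in control and 3.49, 3.60, 2.50 and 3.75 CPM in knockdown. The groups did not overlap, and the mean fell 8.25-fold (log2 fold change -3.03, SE 0.138, adjusted p 1.62e-20 by edgeR). IL15 (chromosome 4, 141636599 to 141733987), a growth factor for natural killer and memory T cells, had 280, 232, 237 and 238 counts in control and 47, 50, 32 and 47 in knockdown. It fell 5.72-fold (log2 fold change -2.50, SE 0.114, adjusted p 2.34e-16 by edgeR). IL32 fell to 62.8% of the control level, from 1.78 ± 0.0796 to 1.12 ± 0.245 CPM (SD, n = 4 in each group; adjusted p 0.00372 by edgeR).

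IL17D rose 3.85-fold, from 28, 39, 42 and 28 counts to 143, 123, 109 and 160 (log2 fold change 1.95, SE 0.210, adjusted p 7.15e-11 by edgeR). The antisense gene AL161772.1, with a mean of 47.6 counts, covers 39% of its exon bases, and the use of strand in counting is not stated, so the share of these reads that belongs to IL17D is uncertain. The other interleukins met the minimum in 1 group only. IL16, a CD4 ligand, averaged 5 counts in control and 51 in knockdown, and STARD5 on the opposite strand, with 92.2 counts, covers 36% of its exon bases. IL27 had 8, 9, 11 and 10 counts in control and 32, 36, 31 and 35 in knockdown. IL11, a cytokine of the IL6 family, had 14 to 22 counts in control and 2 to 5 in knockdown. IL23A, the p19 subunit of IL23, had 7 to 13 and 3 to 7 counts, and was below the filter of the fit.

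**Figure D2:**
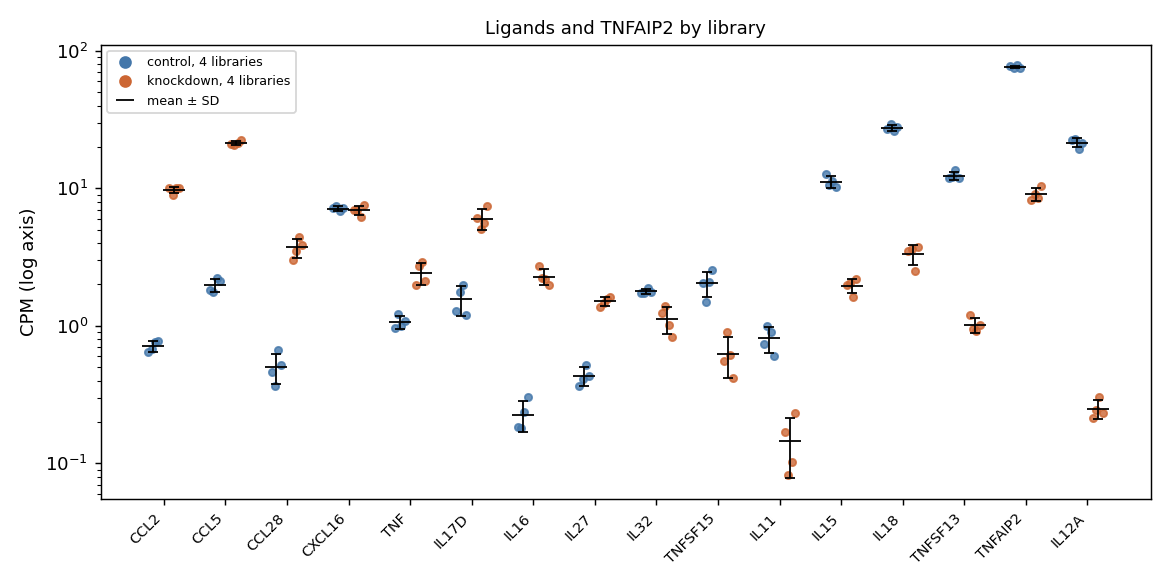
CPM (log axis) of 15 ligand genes and TNFAIP2 in each of the 8 libraries, with the mean and SD of each group. CCL2, CCL5, CCL28, TNF, IL17D, IL16 and IL27 are higher in all 4 knockdown libraries, CXCL16 overlaps between the groups, and IL15, IL18, TNFSF13, TNFAIP2 and IL12A are lower in all 4. IL16 and IL27 met the count minimum in knockdown only and IL12A in control only, which fixed their direction.

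Receptor chains for IL15 and IL18 are given by their counts. IL15RA (chromosome 10, 5943639 to 5978187), the alpha chain that binds IL15 and presents it to neighbouring cells, had 1, 3, 1 and 1 counts in control and 227, 236, 238 and 237 in knockdown. The summed counts were 154-fold higher in knockdown (95% exact counting interval 70.7 to 422). IL2RB, the beta chain that IL15 and IL2 receptors share, had 5, 4, 6 and 4 counts in control and 25, 37, 24 and 31 in knockdown. IL18R1, the binding chain for IL18, had 8, 7, 7 and 9 counts in control and 42, 35, 25 and 32 in knockdown. All 3 met the minimum in knockdown only, so their direction was fixed by the choice of genes. The gene AL137186.2 (same strand, mean count 26.4) shares 4.2% of the exon bases of IL15RA.

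IL6R (chromosome 1, 154405193 to 154469450), the binding chain for IL6, fell most of the receptors tested. It was at 85.0, 89.6, 87.9 and 83.2 CPM in control and 5.95, 6.55, 5.86 and 5.74 CPM in knockdown. The mean fell 14.3-fold, with no overlap (log2 fold change -3.84, SE 0.0485, adjusted p 2.21e-26 by edgeR). IL4R, the chain that binds IL4, fell to 59.7% of its control level (39.0 ± 1.28 to 23.3 ± 1.70 CPM, SD, n = 4 each; adjusted p 4.61e-12 by edgeR). IL13RA1, its partner in the receptor for IL13, fell to 75.4% (59.2 ± 2.15 to 44.7 ± 1.59 CPM, SD, n = 4 each; adjusted p 9.91e-09 by edgeR). IL10RB, a chain shared by IL10 family receptors, was at 53.1% (adjusted p 2.79e-12 by edgeR); AP000295.1 (same strand, mean count 49.9) covers 38.1% of its exon bases.

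Of the 5 IL17 receptor genes, 4 fell and 1 rose, where 38.1% and 37.5% of the 14461 genes did. IL17RE, the chain for epithelial IL17C, was at 16.6, 17.5, 18.9 and 19.4 CPM in control and 2.34, 2.33, 2.44 and 2.36 CPM in knockdown. It fell 7.64-fold (log2 fold change -2.93, SE 0.0535, adjusted p 8.71e-20 by edgeR). Its neighbour IL17RC, downstream on the same strand of chromosome 3, fell to 66.1% of the control level (adjusted p 9.3e-10 by edgeR). IL17RA, the chain common to the family, was at 66.4% and IL17RD, a modulator of growth factor signalling, at 76.0% (adjusted p 4.82e-10 and 0.000275 by edgeR). IL17RB, the chain for IL25, rose 1.60-fold, from 1.86 to 2.97 CPM (adjusted p 0.000201 by edgeR).

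In the IL1 receptor family, IL1RAP (chromosome 3, 190514051 to 190659750), the accessory chain for IL1, IL33 and IL36 receptors, was at 16.3, 16.1, 14.8 and 16.2 CPM in control and 67.4, 74.6, 73.0 and 72.9 CPM in knockdown. It rose 4.55-fold (log2 fold change 2.18, SE 0.0460, adjusted p 2.61e-22 by edgeR). IL1R1, the signalling receptor for IL1, rose 1.24-fold, from 22.2 ± 0.806 to 27.6 ± 2.01 CPM (SD, n = 4 each; adjusted p 2.37e-05 by edgeR). The median log2 fold change of its 50 nearest tested protein-coding genes was 0.30, close to its own 0.32, and with that regional shift removed it did not pass (adjusted p 0.819 by edgeR). IL1RL1, the receptor for IL33, lies downstream of IL1R1 on chromosome 2 and overlaps IL18R1. Its control counts were 9, 13, 9 and 10, and all 4 knockdown libraries had 0. With 3 counts set in each of those, it was at least 3.43-fold lower. IL1RL1 met the minimum in control only and IL18R1, given above, in knockdown only, so both directions were fixed by the choice of genes. IL1RAPL2, a neuronal member of the family, had 1 to 4 counts in control and 23 to 34 in knockdown. It too met the minimum in knockdown only.

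The antagonists IL36RN and IL1RN lie near each other on chromosome 2. IL36RN, which blocks the IL36 receptor, had 13, 12, 8 and 15 counts in control and 120, 112, 110 and 119 in knockdown. It rose 9.60-fold (log2 fold change 3.24, SE 0.173, adjusted p 7.3e-15 by edgeR). IL1RN, which blocks IL1R1, had 8, 16, 19 and 9 counts in control and 1, 1, 3 and 3 in knockdown. It met the minimum in control only, which fixed its direction, and was below the filter of the fit. Its summed counts were 6.58-fold higher in control (95% exact counting interval 3.10 to 16.0).

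The remaining receptors were low. IL27RA averaged 3.75 and 22.5 counts and IL20RB 5.75 and 25 counts in control and knockdown. Both met the minimum in knockdown only. The gene NCK1 (same strand, mean count 609.6) shares 66 exon bases with IL20RB. IL11RA (log2 fold change 0.15, adjusted p 0.333 by edgeR) and IL9R (log2 fold change -0.36, adjusted p 0.292 by edgeR) did not pass. With the regional shift removed IL11RA passed as higher (0.67, adjusted p 9.82e-05 by edgeR). It shares 334 exon bases with the more abundant GALT on the same strand. IL9R has pseudogene copies, which leaves its counts uncertain.

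**Figure D3:**
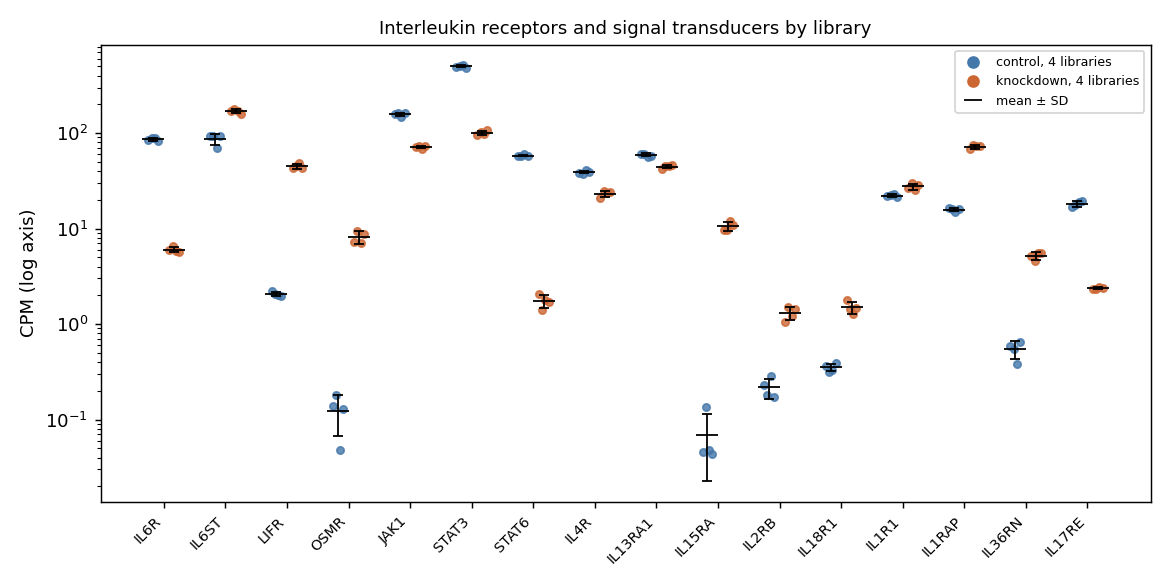
CPM (log axis) of interleukin receptor genes, the antagonist gene IL36RN and the signalling genes IL6ST, LIFR, OSMR, JAK1, STAT3 and STAT6 in each of the 8 libraries, with the mean and SD of each group. IL6R, STAT3, STAT6 and IL17RE lie lower in all 4 knockdown libraries, and IL15RA, LIFR, OSMR and IL1RAP higher. IL15RA met the count minimum in knockdown only, which fixed its direction, and OSMR also reached it in knockdown only.

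The chain from receptor to nucleus was followed through a list of 38 signal transducers, of which 37 were in the table and 33 met the minimum in both groups. Of these, 15 were lower, 13 higher and 5 did not pass, with a median log2 fold change of -0.0012. Over the 14461 genes the shares were 38.1% lower and 37.5% higher. STAT3, the main factor downstream of IL6R, fell to 20.0% of its control level, from 499 ± 11.4 to 99.9 ± 5.22 CPM (SD, n = 4 each; adjusted p 1.19e-25 by edgeR). STAT6, the factor downstream of IL4R, had 1252, 1274, 1262 and 1342 counts in control and 48, 34, 35 and 37 in knockdown, a 33.6-fold fall (adjusted p 2.6e-26 by edgeR). LIFR and OSMR pair with IL6ST in the receptors for LIF and OSM. LIFR rose 21.8-fold, from 2.07 ± 0.122 to 44.96 ± 2.49 CPM (SD, n = 4 each; adjusted p 5.03e-25 by edgeR). OSMR went from 11 summed counts to 731, 65.7-fold higher (95% exact counting interval 36.5 to 132), and reached the minimum in knockdown only. Singled out after its values were seen, IL6ST rose 1.95-fold, with 1467 counts in control replicate 3 against 2043 to 2139 in the other controls (adjusted p 5.76e-05 by edgeR). JAK1, singled out likewise, fell to 45.7% (adjusted p 7.66e-19 by edgeR).

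Of the 4 TNFSF ligands that met the minimum in both groups, 3 fell and 1 did not pass the test. Over the 14461 genes, 38.1% were called lower and 75.5% either way. TNF itself rose. TNFSF13 (chromosome 17, 7558292 to 7561608), the B cell factor APRIL, had 258, 266, 285 and 275 counts in control and 28, 23, 18 and 22 in knockdown. It fell 12.1-fold, with no overlap (log2 fold change -3.59, SE 0.0944, adjusted p 2.81e-19 by edgeR). TNFSF15, the ligand of TNFRSF25, fell 3.30-fold, from 45, 33, 44 and 59 counts to 13, 22, 12 and 9 (adjusted p 5.16e-07 by edgeR). TNFSF9, the ligand of TNFRSF9, had 34, 24, 30 and 26 counts in control and 17, 23, 12 and 20 in knockdown (1.62-fold lower, adjusted p 0.00947 by edgeR). TNFSF10, the death ligand TRAIL, met the minimum in control only, with 22, 18, 22 and 18 counts there and 0, 2, 0 and 0 in knockdown. The summed counts were 40.5-fold higher in control (95% exact counting interval 10.8 to 340).

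TNFSF4 (OX40 ligand) had 21, 27, 9 and 16 counts in control and 18, 13, 8 and 16 in knockdown. The groups overlapped and the difference did not pass (log2 fold change -0.42, SE 0.378, adjusted p 0.209 by edgeR). TNF (chromosome 6, 31575567 to 31578336), the founding ligand of the family, had 21, 27, 21 and 25 counts in control and 47, 66, 57 and 46 in knockdown. It rose 2.28-fold with no overlap (log2 fold change 1.18, SE 0.150, adjusted p 3.28e-06 by edgeR). TNF was at 1.45 CPM per kilobase in knockdown, below CCL5 and CCL2 on that scale.

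The receptors of these ligands, from a list of 29 of which 26 were in the table and 10 met the minimum in both groups, divided into 6 higher, 3 lower and 1 that did not pass, beside 37.5% higher and 38.1% lower of the 14461 genes. Those named here that met it in 1 group only are given without a test. TNFRSF11B, the secreted decoy receptor osteoprotegerin, had 2, 0, 1 and 2 counts in control and 903, 919, 802 and 820 in knockdown, 681-fold more in sum (95% exact counting interval 291 to 2097). TNFRSF11A, the receptor RANK, had 240, 253, 240 and 245 counts in control and 0, 0, 1 and 3 in knockdown, 247-fold fewer in sum (95% exact counting interval 96.3 to 910). TNFRSF1B, the second TNF receptor, had 6, 5, 6 and 8 counts in control and 144, 161, 101 and 144 in knockdown. LTBR, the most abundant of the list, rose 1.13-fold (adjusted p 0.000331 by edgeR); its neighbours had a median log2 fold change of 0.21, and its sign reversed with that shift removed. For the chemokines, 19 of 22 listed receptors were in the table and 7 met the minimum in both groups, with 3 higher, 1 lower and 3 that did not pass, against the same shares of 37.5% and 38.1%. CX3CR1 rose 8.26-fold to 61.0 ± 3.03 CPM (SD, n = 4; adjusted p 1e-19 by edgeR). CXCR4, the receptor for CXCL12, met the minimum in knockdown only, with 2 to 5 counts per control library and 73 to 103 in knockdown. CCR2, the receptor for CCL2, fell from 69 to 84 counts to 17 to 31 (adjusted p 7.51e-09 by edgeR).

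None of the 12 NF-kB subunit, inhibitor and kinase genes changed 2-fold, where 20.8% of the 14461 genes did; 9 of them fell and 3 did not pass. All 5 subunit genes were called lower in knockdown, as were 38.1% of the 14461 genes, by 1.15-fold to 1.44-fold. RELA (chromosome 11, 65653596 to 65663094), the main activating subunit, was at 90.1, 82.8, 93.4 and 83.5 CPM in control and 61.5, 59.5, 60.5 and 63.6 CPM in knockdown. It fell to 70.0% with no overlap (log2 fold change -0.51, SE 0.0471, adjusted p 1.2e-10 by edgeR). NFKB1 (chromosome 4, 102501329 to 102617302), the precursor of p50, had 2436, 2508, 2391 and 2441 counts in control and 2053, 2168, 1729 and 1875 in knockdown. Its log2 fold change was -0.34 (SE 0.0276, adjusted p 1.11e-08 by edgeR), that of its 50 nearest genes had a median of -0.28, and with the regional shift removed it did not pass (adjusted p 0.174 by edgeR). NFKB2, the precursor of p52, fell to 78.7% (adjusted p 4.89e-07 by edgeR). REL, the lymphoid subunit, fell to 69.5% (adjusted p 2.71e-06 by edgeR); AC010733.2 (same strand, mean count 436) covers 43.3% of its exon bases. RELB overlapped between the groups, at 11.03 to 13.0 CPM in control and 10.03 to 11.1 CPM in knockdown (adjusted p 0.016 by edgeR). Its call was lost without control replicate 1 (adjusted p 0.0522), without knockdown replicate 1 (0.0589) and with library size scaling (0.137).

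The 4 inhibitors were at 86.6% to 94.6% of the control level in knockdown, and 2 of them fell, where 38.1% of the 14461 genes did. NFKBIA (chromosome 14, 35401511 to 35404749), printed above, was at 84.6, 90.2, 93.2 and 87.1 CPM in control and 80.2, 80.3, 79.9 and 82.0 CPM in knockdown, 90.8% of the control level (log2 fold change -0.14, SE 0.0315, adjusted p 0.00277 by edgeR). Its call was lost with scaling by library size only (adjusted p 0.196), and its sign reversed with the regional shift removed. NFKBIE was at 86.6% (adjusted p 0.0268 by edgeR), a call that was lost without control replicate 3 (adjusted p 0.0971), without knockdown replicate 2 (0.107) or 4 (0.0511), with library size scaling (0.172) and in DESeq2 (0.068). NFKBIB (log2 fold change -0.08, adjusted p 0.154 by edgeR) and NFKBIZ, a nuclear cofactor (log2 fold change -0.14, adjusted p 0.128 by edgeR), did not pass. NFKBIZ passed without control replicate 3, at -0.20 (adjusted p 0.033 by edgeR), and both passed with the regional shift removed, NFKBIB at -0.39 (adjusted p 1.65e-07) and NFKBIZ at -0.41 (0.000114).

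Of the 3 IKK genes, IKBKG, the regulatory subunit NEMO, fell to 87.3% (21.8 ± 0.520 to 19.02 ± 1.19 CPM, SD, n = 4 each; adjusted p 0.0037 by edgeR). The call of IKBKG was lost with library size scaling (adjusted p 0.0768) and with the regional shift removed (0.0747). CHUK, the kinase of the non-canonical route, was at 91.1% (adjusted p 0.0447 by edgeR), with groups that overlapped; the call was lost in DESeq2 (adjusted p 0.0737), in voom (0.0706), with the block (0.0689), with library size scaling (0.443) and with the mean minimum of 50 counts (0.0691). It was also lost without control replicate 2 (0.0518) or 4 (0.261) and without knockdown replicate 1 (0.0935), 2 (0.0966) or 4 (0.121). IKBKB, the kinase of the canonical route, was at 30.0 ± 0.539 and 31.3 ± 1.69 CPM (SD, n = 4 each) and did not pass (log2 fold change 0.06, adjusted p 0.303 by edgeR). It passed as higher with library size scaling (0.14, adjusted p 0.0124) and as lower with the regional shift removed (-0.17, adjusted p 0.00452). Per kilobase of merged exon, NFKBIA was the most abundant of all 59 genes in both groups, at 37.4 CPM in control and 34.0 CPM in knockdown. TNFAIP1 was close to it on that scale, at 36.1 CPM in control and 31.9 CPM in knockdown.

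**Figure D4:**
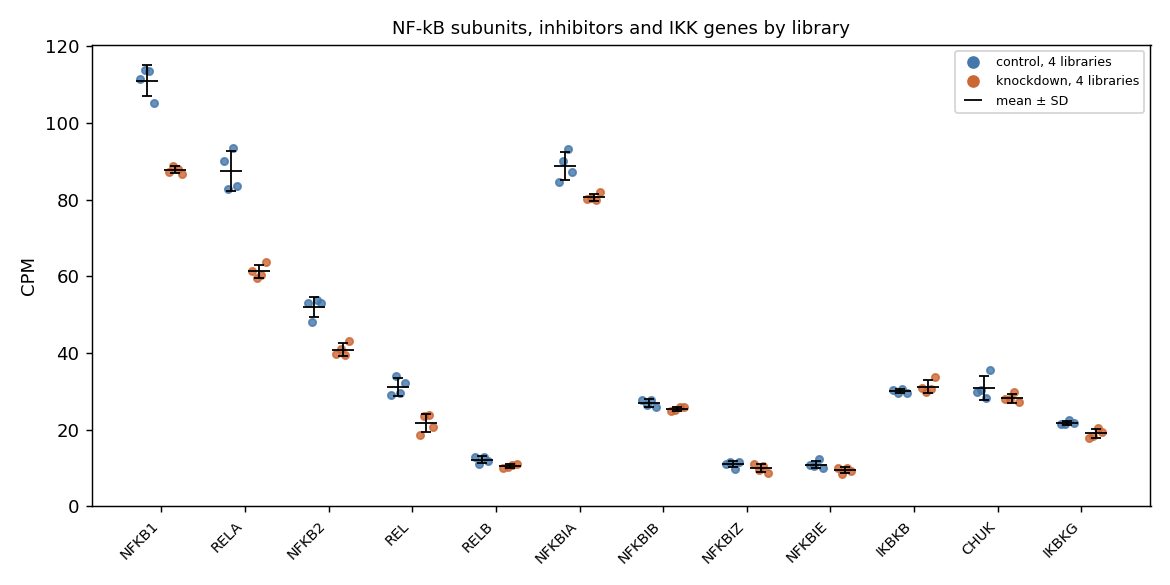
CPM (linear axis from 0) of the 12 NF-kB subunit, inhibitor and kinase genes in each of the 8 libraries, with the mean and SD of each group. NFKB1, RELA, NFKB2 and REL lie lower in all 4 knockdown libraries, while NFKBIB, NFKBIZ, IKBKB, CHUK and RELB overlap between the groups.

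Genes that TNF and NF-kB are known to induce moved in both directions. TNFAIP2 (chromosome 14, 103123442 to 103137439), a gene linked to membrane protrusion, was at 77.2, 74.8, 78.6 and 75.5 CPM in control and 8.29, 9.14, 8.50 and 10.4 CPM in knockdown. It fell 8.43-fold (log2 fold change -3.08, SE 0.0738, adjusted p 2.64e-24 by edgeR). TNFAIP8, an inhibitor of apoptosis, rose 3.45-fold, from 95, 106, 72 and 87 counts to 345, 356, 272 and 286 (adjusted p 7.38e-15 by edgeR). Its 50 nearest genes on chromosome 5 had a median log2 fold change of 0.72, against its own 1.79. TNFAIP3, the deubiquitinase A20 that restrains the pathway, fell to 81.0% (adjusted p 0.00338 by edgeR). TNFAIP1, an adaptor for ubiquitin ligases, fell to 88.6% (adjusted p 0.000275 by edgeR); its sign reversed with the regional shift removed. BIRC3, an inhibitor of apoptosis that also acts on the pathway, had 72, 59, 40 and 80 counts in control and 32, 37, 18 and 21 in knockdown, a 2.38-fold fall (log2 fold change -1.23, SE 0.260, adjusted p 8.1e-06 by edgeR).

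Of 28 other listed targets of NF-kB, 26 were in the table and 15 met the minimum in both groups, with 6 higher, 5 lower and 4 that did not pass, shares near the 37.5% higher and 38.1% lower of the 14461 genes. LCN2, a secreted iron-binding protein, had 319, 312, 347 and 357 counts in control and 1, 0, 0 and 1 in knockdown. It met the minimum in control only, so it is not among those 15. CD83 rose 6.98-fold, from 11 to 16 counts per library to 81 to 113 (adjusted p 1.25e-13 by edgeR). CFB, a complement factor, fell 3.19-fold (adjusted p 5.97e-09 by edgeR), and SOD2, the most abundant over the 2 groups together, rose 1.18-fold (adjusted p 1.4e-06 by edgeR).

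Upstream of IKK, 30 of 35 adaptors and enzymes met the minimum in both groups, with 18 lower, 5 higher and 7 that did not pass, where 38.1% of the 14461 genes were lower and 37.5% higher. MYD88, the adaptor of IL1 family and Toll-like receptors, fell to 40.0% of its control level, from 321 ± 6.78 to 129 ± 3.60 CPM (SD, n = 4 each; adjusted p 1.35e-21 by edgeR). CARD14, an epithelial scaffold, fell 6.83-fold (adjusted p 8.57e-17 by edgeR). TRAF5, an adaptor of TNF receptors, had 3 or 4 counts per control library and 708 to 905 in knockdown, so it met the minimum in knockdown only. Of 14 listed feedback inhibitors and deubiquitinases, 13 met the minimum in both groups, with 8 lower, 4 higher and 1 that did not pass, against the same 38.1% and 37.5%. BCL3, a nuclear IkB protein, fell 3.99-fold (adjusted p 1.66e-20 by edgeR), TAX1BP1, the most abundant, fell 2.36-fold (adjusted p 1.2e-11 by edgeR) and NFKBID rose 2.16-fold (adjusted p 8.54e-09 by edgeR).

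The 47 genes under the minimum had a mean of at most 9.75 counts in either group, and none was tested. Just below it were IL1B, with 0, 0, 0 and 1 counts in control and 8, 10, 10 and 11 in knockdown, IL12RB1, with 2 to 4 and 6 to 13 counts, and IL6, with 0, 1, 0 and 0 counts in control and 13, 6, 7 and 9 in knockdown. Just above it were IL1RL1 and IL23A, given above, and IL9R, with a mean of 12.75 counts in control and 10 in knockdown.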

How the data were processed

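For 8 libraries, 4 in each group, the authors deposited whole-number counts of each gene, with its symbol. FastQC, Salmon 1.9, DESeq2 3.16 and the build hg38 are named, without their roles, per the submitters' processing notes; if Salmon made the counts, they are rounded estimates. The annotation release and whether counting used strand are not given in the sources used here. Symbols name 21077 of 30434 genes. The genes and lists were chosen with earlier results of these data known.

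Counts were tested in R 4.3.3 with edgeR 4.0.16: filterByExpr (minimum 10 counts, total 15), which left 16430 genes, TMM factors of 0.965 to 1.04, the robust quasi-likelihood test and Benjamini-Hochberg adjustment over all genes tested. Fold changes use a prior count of 0.125, and SEs come from log2 CPM with 0.5 added. Folds without "log2" are ratios of mean CPM. Where a group averaged 3 counts or fewer, the ratio of summed counts has an exact 95% interval for counting error only. A group at 0 was set to 3 counts in each library.

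Positions, exon lengths and overlaps come from GENCODE 29 on GRCh38, which matched all 59 genes. Alternatives were RLE scaling, library size only, no filter, a mean of at least 50 counts, DESeq2 1.42.0, limma 3.58.1 voom, a replicate block, leaving out each library, and, added after seeing the data, removal of a regional shift (the median log2 fold change over the 50 tested protein-coding genes nearest to each gene). On simulated counts for 16430 genes, 88 of 100 genes changed 2-fold and 98 of 100 changed 4-fold were called, and 22 of 208 calls were false. Named genes were the NF-kB genes, BIRC3 and TNF; in each other role the 6 largest changes and the 3 highest levels; the 3 genes on each side of the minimum; and in each list the 3 largest changes called and the most abundant gene; a gene that this rule names is not reported here. IL6ST, JAK1 and 14 of the 59 genes (IL10RB, IL11RA, IL17RA, IL17RB, IL17RC, IL17RD, IL18R1, IL1R1, IL1RN, IL20RB, IL27, IL27RA, IL32 and IL4R) fall outside this rule and were named after their values were seen.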

Additional observations from a re-analysis of the deposited data

Results flagged for a closer look

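Single libraries are listed here that lay far from the other 3 of their group, by Dixon's ratio of the gap to the range at its 95% critical value. Over 117 groups there were 8, where chance gives about 5.85. In control, replicate 3 was high for IKBKG (22.6 CPM against 21.5 to 21.6, ratio 0.852) and TNFSF13 (13.5 against 11.8 to 12.1 CPM, ratio 0.848) and low for IL1RAP (14.8 against 16.1 to 16.3 CPM, ratio 0.875). Control replicate 2 was low for NFKB2 (48.1 against 52.9 to 53.9 CPM, ratio 0.838). It was high for IL15RA (3 counts against 1, ratio 0.953) and IL1RL1 (13 counts against 9 to 10, ratio 0.894). Knockdown replicate 2 was low for CCL2 (8.97 against 9.98 to 10.1 CPM, ratio 0.906) and high for TNFSF10 (2 counts against 0, ratio 1). No cause was tested.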

How the results depend on the processing

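Of 56 genes in the fit, 43 kept their direction and their side of the threshold under all 16 alternatives that could be computed for them. The count called higher was 18, where 39.4% of all 16430 genes tested were called higher. It includes 8 genes that met the minimum in knockdown only, whose direction was fixed by the choice of genes. The count was 18 under each single-library omission and 9 with a mean minimum of 50 counts. It was 10 among those with the minimum in both groups, which leaves those 8 out. The count called lower was 31, where 37.7% of all genes tested were called lower. It includes 4 genes that met the minimum in control only, so their direction was fixed too. It was 26 by library size only, 34 with no filter and 23 with a mean minimum of 50 counts. It was 27 among those with the minimum in both groups and 29 to 32 when 1 library was left out. Nothing is read from the stability of calls with a fixed direction. Signs that reversed were all in small changes. With library size only, NFKBIB was at 0.0034 (adjusted p 0.953) and CXCL16 at 0.040 (0.693); with 1 library left out, CXCL16 ranged from -0.090 to 0.0029, the latter without knockdown replicate 3 (0.98). With the regional shift removed, IKBKB was at -0.17 (0.00452), NFKBIA at 0.018 (0.689), TNFAIP1 at 0.0060 (0.894) and LTBR at -0.027 (0.566), all by edgeR; the cause was not tested. Same-numbered libraries did not deviate together (correlations of -0.0307 to 0.0563; 1 of 4 controls correlated best with its own number), and the replicate block gave 18 higher and 30 lower, and 12453 against 12675 calls over all genes. Genes at or below a few counts, such as IL1RL1, were limited by depth.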
